A study of Bos indicus with 11 samples.

Results

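The genes described here are the receptors through which the uterus reads ovarian steroids, glucocorticoids and oxytocin, together with proteins that bind or serve these receptors. They are the progesterone receptor PGR, the estrogen receptors ESR1 and ESR2, the glucocorticoid receptor NR3C1, the membrane-associated progesterone receptor components PGRMC1 and PGRMC2, the cochaperone FKBP4, the estrogen-regulated cofactor GREB1 and the oxytocin receptor OXTR. Each was taken as the row of the deposited table whose gene symbol equals its name. All 9 were found among the 24616 genes listed, and all 9 were among the 15081 genes tested, which had a mean of at least 5 normalized counts over the cows. Their expression was measured by RNA-Seq in endometrial biopsies of healthy, multiparous, non-lactating Nelore (Bos indicus) beef cows from a herd aged 4 to 10 years. All cows had been synchronized and artificially inseminated (AI) at estrus, and the biopsy was taken on day 6 after AI from the horn on the side without the corpus luteum. Of the cows profiled here, 6 were pregnant (P) and 5 non-pregnant (NP) at the diagnosis on day 30. Each cow gave 1 library and counts as 1 replicate. The groups were therefore set by an outcome observed after the biopsy, and no cow received a treatment that the others did not. The paper states that cows were selected after the diagnosis from those inseminated. Plasma progesterone on day 6 had to lie within a set interval, and ovulation had to be seen by ultrasound within hours of AI. The groups were thus matched for progesterone and are not a random sample of the herd. The paper also left out 1 more NP library, which did not align correctly.

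PGR, ESR1, ESR2 and NR3C1 are nuclear receptors that are held in a hormone-binding state by a chaperone complex and that act on transcription once the hormone is bound. In the ruminant uterus, estrogen is known to increase ESR1, PGR and OXTR, and a period of progesterone exposure lowers PGR in the epithelium. Loss of PGR from the luminal epithelium and the later rise of OXTR there belong to the events that decide whether the luteolytic pulses of prostaglandin occur.

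The biopsies held several tissues, and their proportions differed among cows. The depth was 9290949 to 13508711 reads on genes in P and 9783673 to 13569085 in NP cows, and every normalized count was a whole multiple of 1 read. Markers of endometrial epithelium, stroma, endothelium, leukocytes and smooth muscle were all detected, and no marker was at 0 in any cow. The row shared by the smooth muscle actins ACTG2 and ACTA2, used as the measure of muscle, held 28918 to 215006 normalized counts in the P cows (median 72036). It held 17427, 43860, 13869, 89878 and 22537 in the NP cows NP238, NP2541, NP2810, NP638 and NP856. P617 and P1541 were highest, and the widest gap between neighboring cows, 0.88 on the log2 scale, separated them from the other 9. The log2 fold change of this row was -1.37 (SE 0.643, exact permutation p = 0.0801), and all 11 smooth muscle markers tested were lower in the NP mean. P617 also had the least epithelium, with summed epithelial markers at 17.9% of the median of those 9 cows. Values are given below with and without P617 and P1541. The labels place P617 among the P cows, whereas 1 supplementary table of the study names it as NP, and the values with that cow counted as NP are given with the alternatives. Counted in that way, the muscle actin row was at -0.59 (unadjusted p = 0.443).

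No receptor or cofactor differed between P and NP cows after adjustment over all genes tested (limma on log2(normalized count + 1), Benjamini-Hochberg, threshold 0.1), and the same was true of every other gene (0 of 15081, 0%). Log2 fold changes are NP minus P throughout. At an unadjusted p under 0.05, 1 of the 9 passed, NR3C1, which was higher in NP. Of all genes tested, 1182 passed that limit (7.84%), 828 of them higher in NP (5.49%) and 354 higher in P (2.35%). The log2 fold change was above 0 for 3 of the 9 genes and below 0 for 6, with a median of -0.14, beside a median of 0.0018 over all genes tested. Tests on recovered reads also called 0 genes with edgeR, where 1168 had an unadjusted p under 0.05 (7.74%), and 0 with limma-voom, where 1192 did (7.9%). DESeq2 called 201 genes (1.33%), and 0 of the 9.

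**Figure D1:**
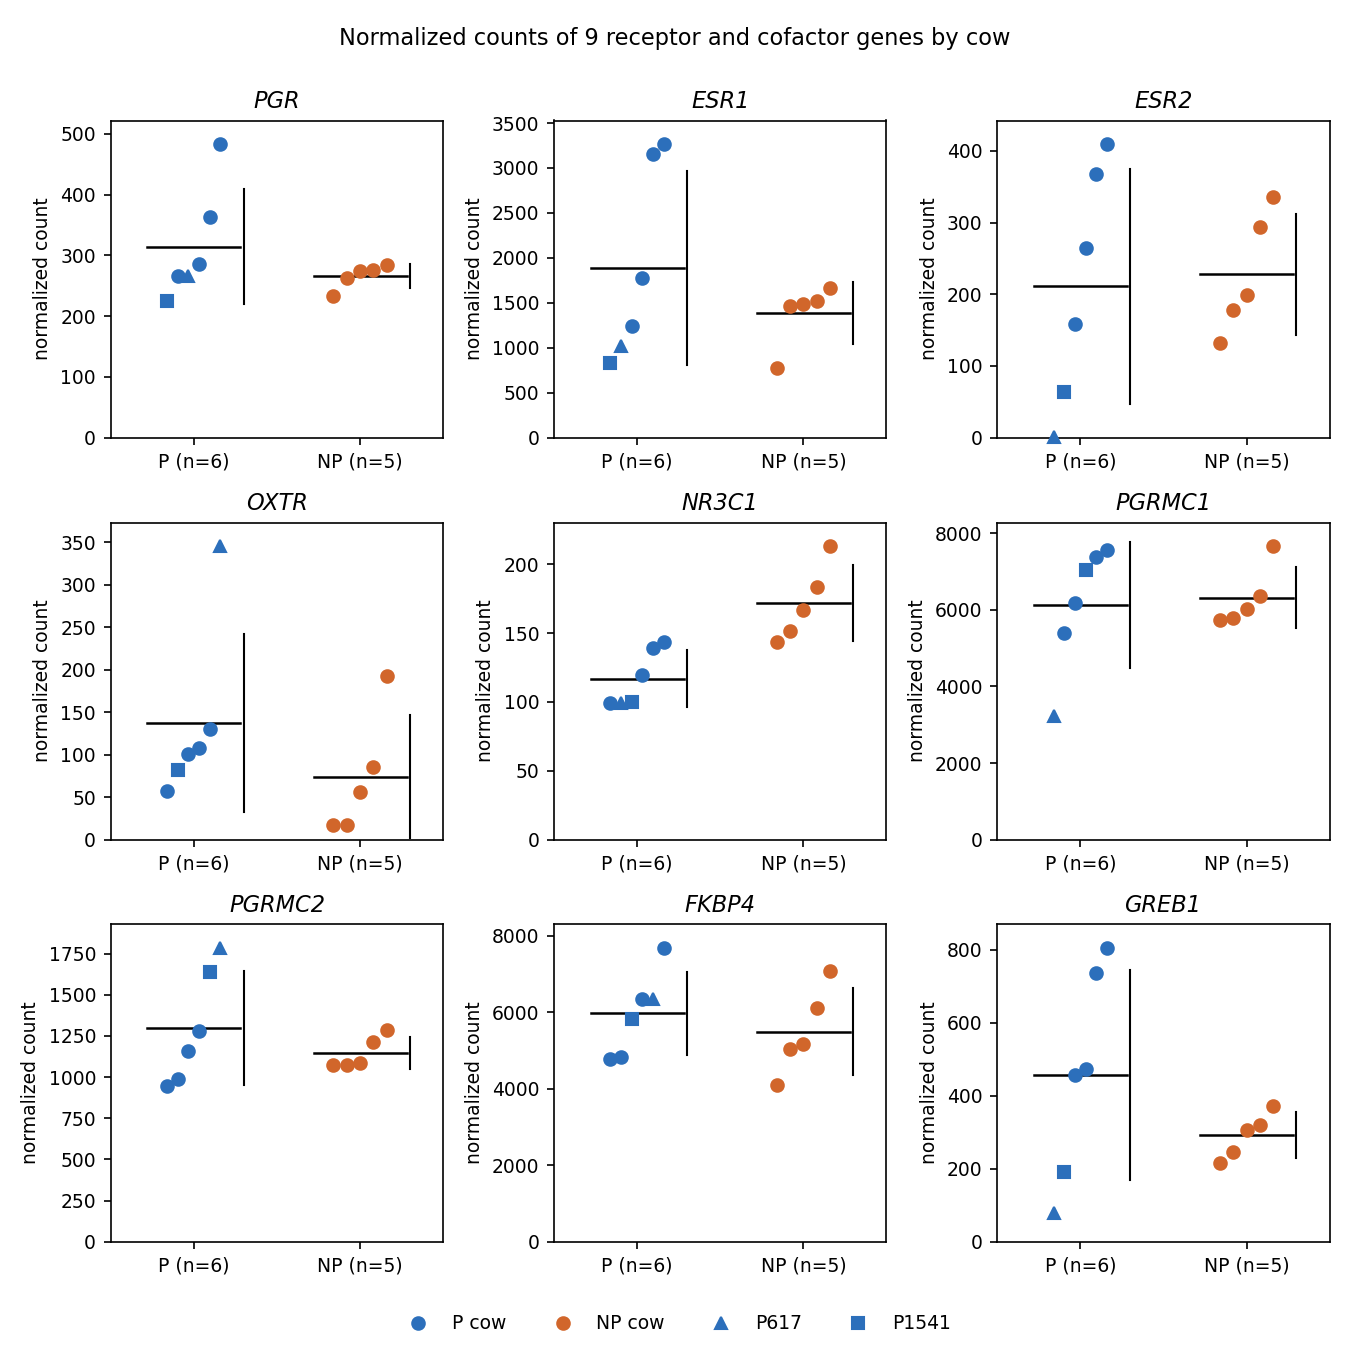
Normalized counts of the 9 genes in each cow (vertical axis, linear, starting at 0, a scale of its own for each gene) in the 6 P and 5 NP cows. Each point is a cow, triangles and squares mark P617 and P1541, horizontal lines are group means and vertical lines 1 SD to each side, stopped at 0. NR3C1 is the gene whose groups do not overlap, whereas in PGR, ESR2, PGRMC2 and GREB1 the P cows spread on both sides of the NP cows.

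NR3C1, the receptor through which cortisol acts, was higher in NP cows. Its normalized counts in the P cows were 99.4 at the lowest, 110 at the median and 143.70 at the highest. In the NP cows NP238, NP2541, NP2810, NP638 and NP856 they were 152, 213, 143.73, 184 and 167. Every NP cow was thus above every P cow, but the highest P cow, P904, and the lowest NP cow, NP2810, were separated by 0.026 normalized counts, which is less than 1 read. The means were 117 ± 20.6 (SD, n = 6) in P and 172 ± 27.7 (SD, n = 5) in NP. This gave a log2 fold change of 0.56 (SE 0.171, 95% interval 0.18 to 0.93), a 1.47-fold difference on the log2(normalized count + 1) scale. The unadjusted p was 0.00726 and the adjusted p 0.400 with limma, and the two-sided exact permutation test over the 462 splits of the cows gave p = 0.00866, with 0.00216 as the smallest value it can give. With DESeq2 the adjusted p was 0.105. Groups that do not overlap were seen in 165 of the 15081 genes (1.09%), of which 129 were higher in NP (0.855%) and 36 higher in P (0.239%).

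The markers of endothelium and of leukocytes moved with NR3C1. All 7 endothelial markers and 8 of 9 leukocyte markers were higher in the NP mean. The summed endothelial markers ranged from 3354 to 11666 normalized counts in P and from 7236 to 12626 in NP, and the difference of their mean log2 level was 0.84 (exact permutation p = 0.0173). The summed leukocyte markers ranged from 874 to 1968 in P and from 1314 to 2241 in NP, with a difference of 0.68 (exact permutation p = 0.039). With the endothelial marker mean as a covariate, the NR3C1 log2 fold change was 0.32 (SE 0.232, unadjusted p = 0.190), and with the leukocyte marker mean it was 0.46 (SE 0.227, unadjusted p = 0.0689). With epithelial markers as the covariate it was 0.55 (SE 0.170, unadjusted p = 0.00773). All 9 stromal markers were also higher in the NP mean, with a difference of 0.47 in their mean log2 level (exact permutation p = 0.184). With them as the covariate NR3C1 was at 0.63 and passed the threshold (adjusted p = 0.0421), one of 3874 of 15080 genes that did. In a bulk biopsy, fewer cells of a type and less RNA per cell cannot be told apart.

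PGR, the nuclear receptor for progesterone, differed between the group means by less than the spread among cows. Its normalized counts were 225 to 483 in the P cows (median 275) and 275, 274, 284, 233 and 262 in NP238, NP2541, NP2810, NP638 and NP856. The NP cows lay within the range of the P cows, and P1753 (483) and P2396 (362) stood above the other 9 cows. Its log2 fold change was -0.20 (SE 0.184, 95% interval -0.60 to 0.21, adjusted p = 0.833, exact permutation p = 0.359). These data are thus compatible with a PGR level in NP from 0.60 lower to 0.21 higher on the log2 scale.

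ESR1, the main estrogen receptor of the endometrium, varied more widely in P than in NP cows. Normalized counts were 831 to 3267 in P (median 1514) and 1660, 1467, 780, 1526 and 1492 in NP238, NP2541, NP2810, NP638 and NP856. The highest values were again in P2396 (3267) and P1753 (3158), and NP2810 was apart from the other 4 NP cows at the low end. A log2 fold change of -0.29 was obtained (SE 0.373, 95% interval -1.11 to 0.52, adjusted p = 0.876, exact permutation p = 0.483), and it was -0.092 without P2396.

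ESR2, the second estrogen receptor, was the most variable of the 9 genes. In the P cows it was measured at 1.13 normalized counts in P617, which is 1 read, 63.9 in P1541, 158 in P904, 265 in P1631, 367 in P1753 and 410 in P2396. The NP cows NP238, NP2541, NP2810, NP638 and NP856 held 293, 199, 133, 179 and 336. The 2 muscle-rich cows were below every NP cow, and the other 4 P cows lay at 158 to 410, beside 133 to 336 in NP. The group means were 211 ± 164 (SD, n = 6) in P and 228 ± 84.0 (SD, n = 5) in NP. The log2 fold change of 1.14 (SE 1.16, 95% interval -1.40 to 3.69, adjusted p = 0.850) rested on P617: without that cow it was 0.04, and without P617 and P1541 it was -0.39. With epithelial markers in the fit the SE was 0.467 and the log2 fold change 0.87 (adjusted p = 0.464). With stromal markers the log2 fold change was 2.74 (SE 0.728, adjusted p = 0.0343), in a fit where a large share of all genes passed, as given above for NR3C1. Both covariates were added after seeing the data, and neither fit was run without P617.

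The membrane-associated components and the cochaperone differed little between the group means. PGRMC1, a heme-binding protein linked to rapid progesterone responses, held 3229 to 7576 normalized counts in P (median 6609) and 6366, 5800, 7669, 5737 and 6024 in NP238, NP2541, NP2810, NP638 and NP856. P617 was the lowest of all cows and the other 10 lay between 5389 and 7669. Between the groups, its log2 fold change was 0.09 (SE 0.214, 95% interval -0.38 to 0.56, adjusted p = 0.934), and it was -0.085 without P617.

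PGRMC2, a related heme-binding protein, held 947 to 1785 normalized counts in P (median 1218) and 1212, 1088, 1285, 1075 and 1072 in NP238, NP2541, NP2810, NP638 and NP856. Here P617 (1785) and P1541 (1640) were the highest cows, the reverse of ESR2. Between the groups the log2 fold change was -0.14 (SE 0.169, 95% interval -0.51 to 0.23, adjusted p = 0.867).

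FKBP4 encodes the immunophilin FKBP52, which binds the receptor complex through HSP90 and is needed for full PGR activity in the uterus. It held 4791 to 7686 normalized counts in P (median 6092) and 6109, 5030, 7074, 4091 and 5162 in NP238, NP2541, NP2810, NP638 and NP856. The highest cow was a P cow, P1753, the lowest an NP cow, NP638, and the other cows were intermixed. The log2 fold change was -0.13 (SE 0.173, 95% interval -0.50 to 0.25, adjusted p = 0.884).

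GREB1, an estrogen-induced protein that binds estrogen receptor complexes, was split within the P group. Normalized counts were 79.1 in P617, 192 in P1541, 456 in P1631, 473 in P904, 737 in P2396 and 804 in P1753. In NP238, NP2541, NP2810, NP638 and NP856 they were 321, 246, 306, 216 and 372. The NP cows therefore lay between the 2 muscle-rich P cows and the other 4 P cows. Over all 11 cows the log2 fold change was -0.30 (SE 0.527, 95% interval -1.45 to 0.85, adjusted p = 0.910, exact permutation p = 0.634). It was -0.73 without P617, -0.064 without P1753, and -1.04 with P617 counted as NP (unadjusted p = 0.037, adjusted p = 0.716).

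OXTR, the receptor for the oxytocin that drives prostaglandin pulses and myometrial contraction, was lower in the NP mean. Normalized counts were 57.8 to 346 in P (median 104) and 86.0, 17.3, 17.3, 193 and 55.9 in NP238, NP2541, NP2810, NP638 and NP856. P617 was highest of all and NP638, the most muscle-rich NP cow, was second. NP2541 and NP2810 were lowest, with 22 and 17 reads. For OXTR the log2 fold change was -1.21 (SE 0.642, 95% interval -2.61 to 0.20, unadjusted p = 0.0855, adjusted p = 0.718, exact permutation p = 0.143), and the groups overlapped. It was -1.69 without NP638 (unadjusted p = 0.0137, adjusted p = 0.472) and -0.43 with P617 counted as NP.

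Each gene was next related to muscle content by the slope of its log2 level on that of the ACTG2 and ACTA2 row, with the group as a term. None of the 9 slopes passed the adjusted threshold, while 1712 of the 15080 genes tested did (11.4%), 1074 of them with a positive slope (7.12%). At an unadjusted p under 0.05, GREB1 and PGRMC1 passed, 2 of 9, beside 26.8% of all genes. GREB1 was lower by 0.57 per unit of log2 muscle actin (slope -0.57, 95% interval -1.01 to -0.12, adjusted p = 0.119) and PGRMC1 by 0.21 (slope -0.21, 95% interval -0.40 to -0.03, adjusted p = 0.142). ESR2 had the steepest slope, -1.06 (95% interval -2.13 to 0.02, adjusted p = 0.192), and OXTR the steepest positive slope, 0.48 (95% interval -0.16 to 1.11, adjusted p = 0.302). The slopes of PGR (-0.08), ESR1 (-0.08), FKBP4 (-0.08) and PGRMC2 (0.08) were small beside their intervals. That of NR3C1 was -0.0015 (95% interval -0.19 to 0.19, adjusted p = 0.992).

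**Figure D2:**
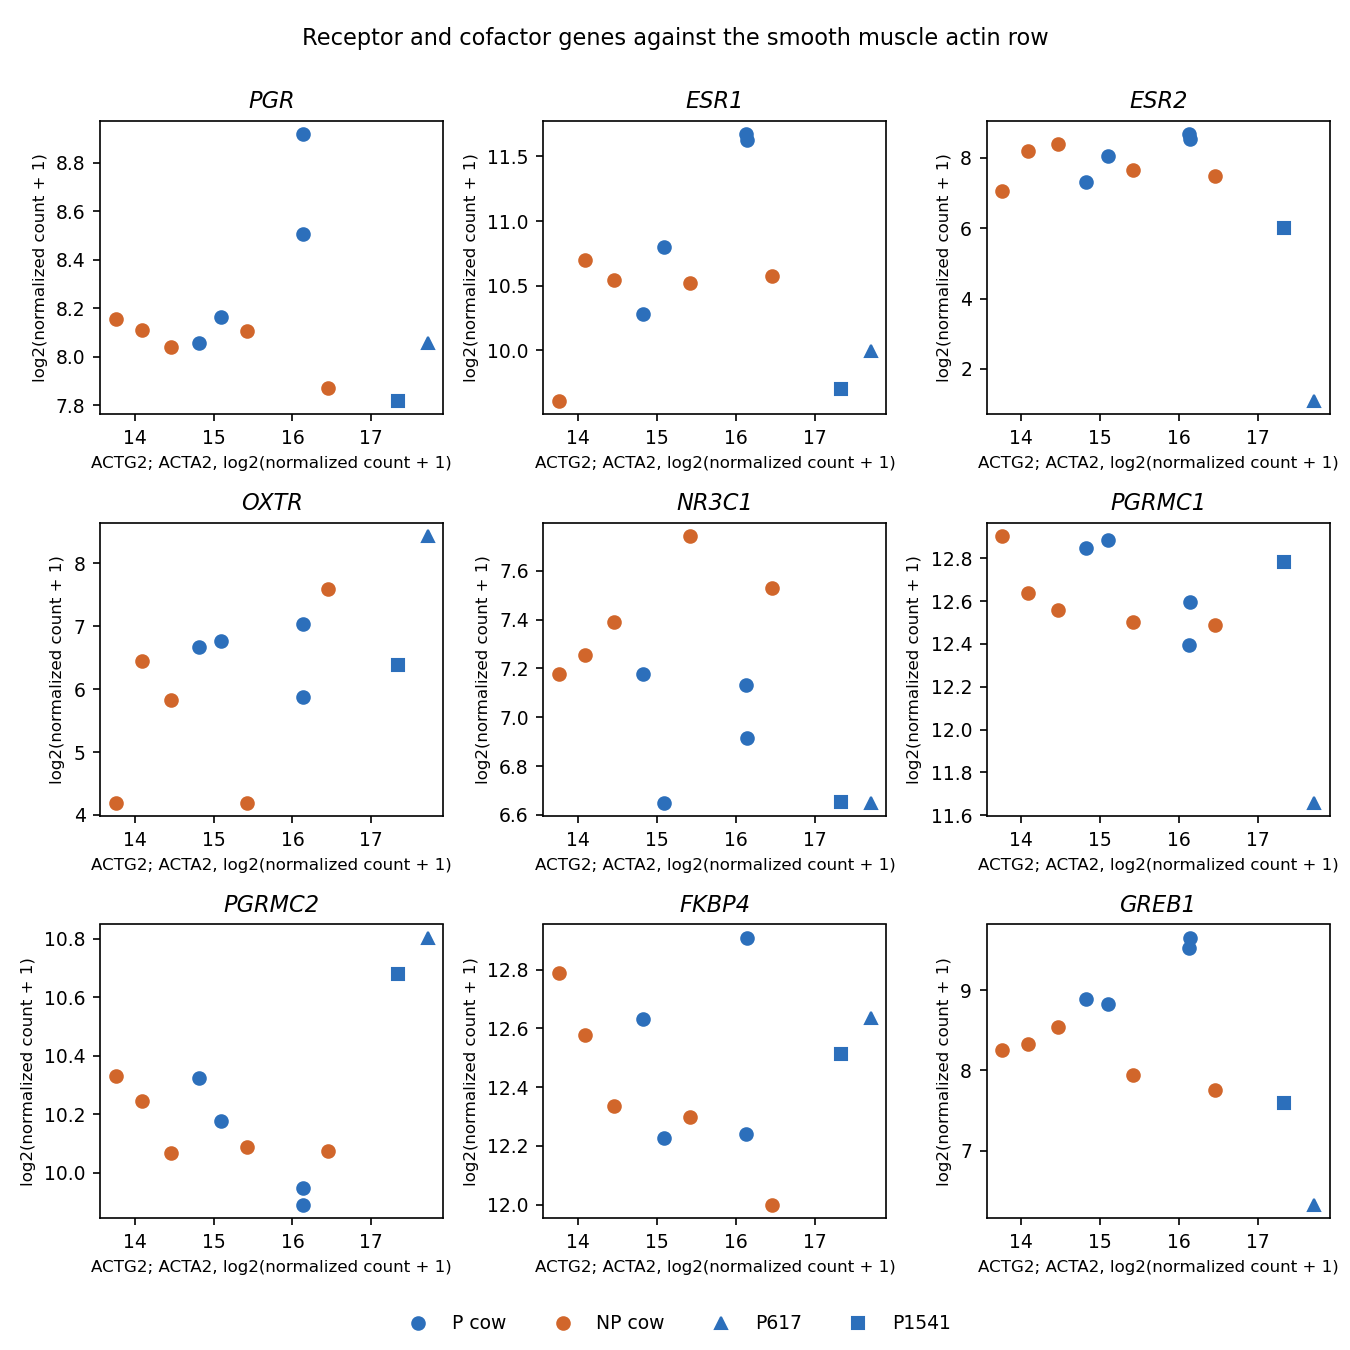
Level of each gene (vertical axis, log2(normalized count + 1), a scale of its own for each gene) against the ACTG2 and ACTA2 row (horizontal axis, same unit), 1 point per cow with P in blue and NP in orange. P617 (triangle) and P1541 (square) lie at the right end, where ESR2 and GREB1 are lowest and PGRMC2 highest. Among the other 9 cows ESR1 is higher and PGRMC2 lower toward the right.

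Several of these relations depended on P617 and P1541, the 2 cows farthest from the median muscle level. In the other 9 cows the slopes of PGRMC1 (-0.16, unadjusted p = 0.0362 with limma) and OXTR (0.47, unadjusted p = 0.255) kept their direction. Over the 11 cows, ESR2 correlated negatively with muscle actin (Pearson's r = -0.59, permutation p = 0.0326, Spearman's rho = -0.27, p = 0.419), but over the other 9 cows r was 0.33, so this relation rested on those cows. The same was true of the slope of GREB1, which was -0.05 in the 9 cows. In the 9 cows the slope of PGRMC2 turned from 0.08 to -0.13 (unadjusted p = 0.0455) and that of ESR1 from -0.08 to 0.37 (unadjusted p = 0.0386), with adjusted p of 0.487 and 0.455. At that limit 3 of the 9 genes passed, PGRMC1 being the other one, beside 9.92% of all genes. Without P617 alone the slope of PGRMC1 was -0.099 (unadjusted p = 0.161), and without P1541 alone it was -0.28 (adjusted p = 0.0801). Its correlation was r = -0.62 (permutation p = 0.0306, rho = -0.60, p = 0.0558) over 11 and r = -0.63 (exact permutation p = 0.077) over 9 cows. OXTR correlated positively in both sets, with r = 0.60 (permutation p = 0.0495, rho = 0.56, p = 0.0767) over 11 and r = 0.48 (exact permutation p = 0.196) over 9 cows. These were 2 sets of 9 correlations, and their p-values are not adjusted.

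At equal muscle actin, that is with the ACTG2 and ACTA2 level as a covariate, 0 of the 9 genes and 0 of 15080 genes differed between the groups with limma after adjustment, and with edgeR the count over all genes was also 0. At an unadjusted p under 0.05 limma passed 848 genes (5.62%) and edgeR 798 (5.29%). NR3C1 was the 1 gene of the 9 past that limit with limma, with a log2 fold change of 0.55 (95% interval 0.09 to 1.02, unadjusted p = 0.0238, adjusted p = 0.792). GREB1 moved from -0.30 to -1.07 (95% interval -2.17 to 0.02, unadjusted p = 0.0536, adjusted p = 0.878). ESR2 moved from 1.14 to -0.30 and OXTR from -1.21 to -0.56.

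In the 9 cows without P617 and P1541, GREB1 was higher in P than in NP without overlap. The 4 P cows held 456 to 804 normalized counts and the 5 NP cows 216 to 372, a 2.08-fold difference. The log2 fold change was -1.06 (95% interval -1.54 to -0.57, unadjusted p = 0.000634, adjusted p = 0.139), and the exact permutation p of 0.00794 is the smallest that 4 against 5 cows can give. In this set 552 of 15081 genes had groups without overlap (3.66%), 177 of them higher in P (1.17%) and 375 higher in NP (2.49%). ESR1 was also higher in P (log2 fold change -0.71, unadjusted p = 0.0471, adjusted p = 0.442, exact permutation p = 0.143), and NR3C1 remained higher in NP (0.45, unadjusted p = 0.0311, adjusted p = 0.392, exact permutation p = 0.0159). These are 3 of the 9 genes at an unadjusted p under 0.05, beside 11.1% of all genes, and after adjustment 17 genes of 15081 (0.113%) but none of the 9 passed. PGR was at -0.35 (unadjusted p = 0.072, exact permutation p = 0.0476) and OXTR at -0.93 (unadjusted p = 0.190). ESR2, PGRMC1, PGRMC2 and FKBP4 were at -0.39, -0.065, 0.076 and -0.10. The higher GREB1 and ESR1 means of P came with the highest values in P1753 and P2396, whose muscle actin, 72206 and 71865 normalized counts, was above that of every NP cow but NP638, and the part of this in the result was not tested beyond the covariate values above. All 9 stromal markers were higher in NP in these cows, each at an unadjusted p under 0.05. All 10 epithelial markers were lower in NP in these cows (median -0.47), 3 of them at that limit. The part of either in the GREB1 and ESR1 differences was not tested in this set.

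**Figure D3:**
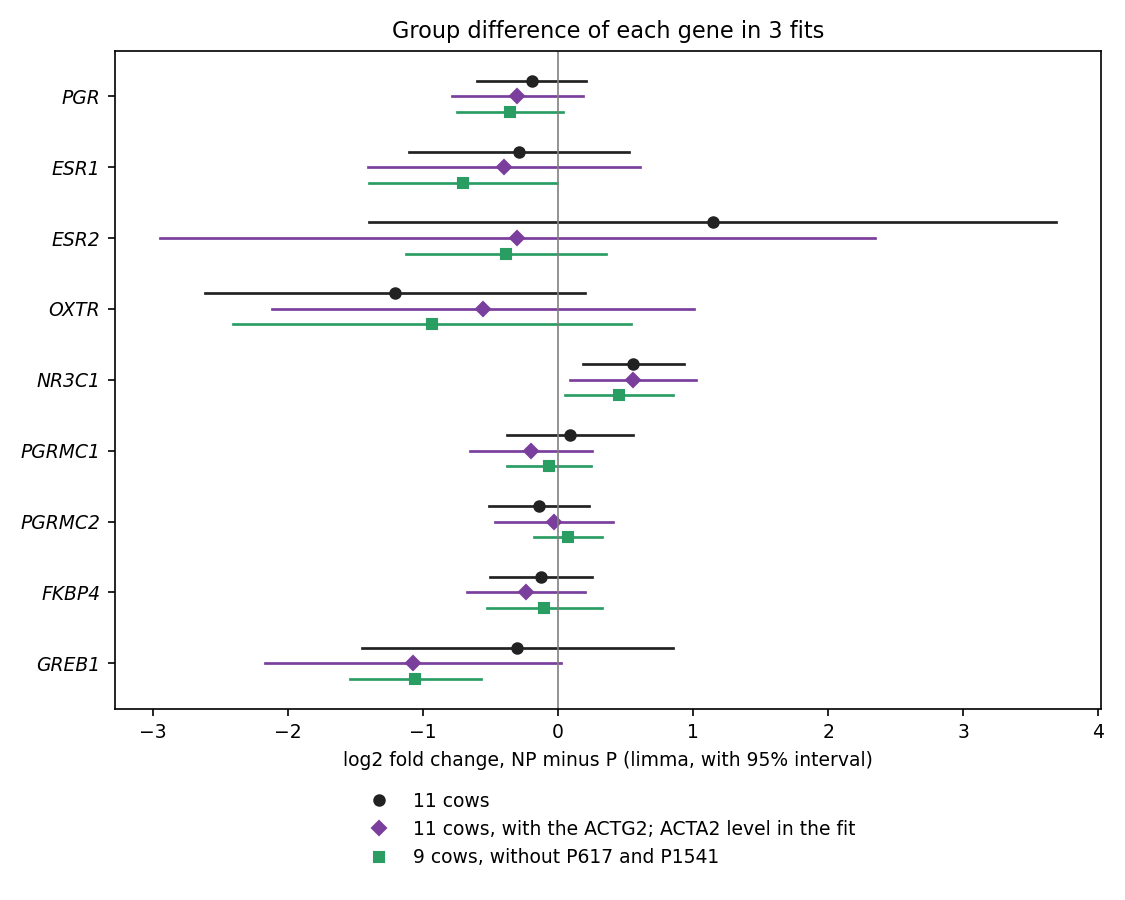
Log2 fold change of each gene, NP minus P (horizontal axis), with its 95% interval from limma. Black circles are all 11 cows, purple diamonds the same cows with the ACTG2 and ACTA2 level in the fit, and green squares the 9 cows without P617 and P1541. NR3C1 lies above 0 in each fit (0.56, 0.55 and 0.45), and the interval of GREB1 excludes 0 only in the 9 cows.

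Among themselves, GREB1 and the estrogen receptors varied together across cows and against PGRMC2. Over 36 pairs, Pearson's r in the 11 cows was highest for ESR2 and GREB1 (Pearson's r = 0.85, permutation p = 0.00052, Spearman's rho = 0.78, p = 0.00652). It was most negative for ESR2 and PGRMC2 (r = -0.85, permutation p = 0.00015, rho = -0.90, p = 0.00047). Without P617 and P1541 these values of r were 0.64 and -0.74. By rank, ESR1 and ESR2 were more alike (rho = 0.88, permutation p = 0.00078, with r = 0.55, p = 0.081, in the 11 cows and r = 0.87 in those 9). Without P2396 and P1753 instead, r of ESR1 with ESR2 was 0.50. Some other pairs correlated weakly, such as PGR with OXTR (r = -0.019, permutation p = 0.954) and FKBP4 with GREB1 (r = 0.076, permutation p = 0.827). ESR1 and PGRMC2 also correlated negatively (r = -0.79, permutation p = 0.00551, rho = -0.81, p = 0.00407), and without P2396 and P1753, the cows farthest from the median of ESR1, r was -0.70. The correlation of PGR with ESR1 (r = 0.77, permutation p = 0.00595, rho = 0.58, p = 0.0658) rested on P1753 and P2396, since r was 0.25 without them. Without the same cows, r of ESR1 with GREB1 fell from 0.72 (permutation p = 0.0123) to 0.42, and that of PGR with GREB1 from 0.69 (permutation p = 0.0262) to 0.35. Without P617 and P1541 instead, these were 0.71 and 0.84. PGRMC2 with GREB1 was at r = -0.80 (permutation p = 0.00323) in the 11 cows and at -0.46 without P617 and P1541. These p-values are not adjusted for the 36 pairs. All values of a cow come from 1 biopsy and 1 library, so its tissue makeup enters every pair.

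The genes whose levels followed each receptor most closely differed from one receptor to another. For each of the 9, the 3 genes with the highest Pearson correlation over the 11 cows were listed, as a description with no test. ESR2 was closest to DSC2, FERMT1 and ERBB3 (r = 0.99 for each), which encode a desmosomal cadherin, an epithelial integrin adaptor and a receptor tyrosine kinase. In the 9 cows without P617 and P1541 these values were 0.92, 0.97 and 0.83. GREB1 was closest to ERMP1 (0.98), BTBD1 (0.98) and GPR108 (0.97). ESR1 was closest to NUP98 (0.96), a nucleoporin, PHF17 (0.95) and UPF1 (0.95), a helicase of nonsense-mediated decay. PGRMC2 was closest to TPT1 (0.97), PCNP (0.96) and SYF2 (0.95), and PGRMC1 to the row that includes CYCS, cytochrome c (0.97), PON2 (0.96) and GANAB (0.95). NR3C1 was closest to the row that includes NAV1 (0.92), to SESN3 (0.91) and to FLI1 (0.91), an ETS factor of endothelial and blood cells. OXTR was closest to ABCC6 (0.90), the integrin subunit ITGB3 (0.89) and ZC3HAV1L (0.89). The values were lowest for FKBP4 (an uncharacterized transcript 0.89, C9H12orf49 0.85 and the row of C1H3orf38 0.85) and PGR, which was closest to FAT2 (0.83), the DNA methyltransferase DNMT1 (0.83) and FBXO34 (0.81).

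The wider pathways were described by lists of genes known from other work, some of which share genes with each other and with the 9. The lists were drawn up with earlier results of these data known. PRMT1 and UGT2A3, for example, are among the genes that the study reported as higher in P from these libraries. The counts below are therefore a description and not an independent test. Of 10 other steroid and membrane steroid receptors tested, 0 passed an unadjusted p under 0.05 in either direction (median log2 fold change 0.17). The progestin receptor family member PAQR6 (0.36, unadjusted p = 0.112) and the PGRMC1 partner SERBP1 (-0.25, unadjusted p = 0.158) had the smallest p. Of 17 rows of receptor chaperones (HSP90AB1 having 2), 0 passed in either direction, 13 being higher in the P mean (median -0.14). Nearest to the limit was FKBP5, the immunophilin that restrains NR3C1 and is induced by it, with 5633 ± 1073 (SD, n = 6) normalized counts in P and 4305 ± 915 (SD, n = 5) in NP (log2 fold change -0.39, unadjusted p = 0.060). The ubiquitin ligase STUB1 followed (-0.17, unadjusted p = 0.142). Of 22 coregulators, 2 passed, both higher in P (median -0.05), beside 2.35% of all genes. These were the arginine methyltransferase PRMT1, whose groups did not overlap, as in 0.239% of all genes with P higher (-0.28, unadjusted p = 0.0105, adjusted p = 0.443), and the corepressor CTBP2 (-0.40, unadjusted p = 0.0129, adjusted p = 0.459).

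Genes known to respond to each receptor were counted in the same way. Of 17 rows (16 genes, PTCH1 having 2 rows) known to respond to progesterone through PGR, 3 passed an unadjusted p under 0.05 higher in NP and 0 higher in P (median 0.57), beside 5.49% and 2.35% of all genes. They were the zinc finger factor ZBTB16 (0.95, unadjusted p = 0.00249, adjusted p = 0.323), the activin-binding protein FST and the LIF receptor LIFR. FST held 24.0 to 812 normalized counts in P and 503 to 1259 in NP (2.45, unadjusted p = 0.00487, adjusted p = 0.364). LIFR held 103 to 264 in P and 272 to 499 in NP, without overlap (0.88, unadjusted p = 0.0123, adjusted p = 0.459), but it was also among the genes whose slope on muscle actin passed the adjusted threshold (-0.39, adjusted p = 0.033). In the 9 cows without P617 and P1541, 9 of the 17 rows passed higher in NP and 3 higher in P (median 0.45). The shares of all genes were 7.14% and 4.01%. In these cows all 9 stromal markers were higher and all 10 epithelial markers lower in NP. The part of tissue makeup in these counts was not tested. Of 17 genes known to respond to estrogen through ESR1, which include PGR and GREB1, 0 passed higher in NP and 2 higher in P (median -0.29), beside the same shares. These were XBP1, a factor of the unfolded protein response (-0.41, unadjusted p = 0.0153, adjusted p = 0.483), and LTF, lactoferrin (-1.31, unadjusted p = 0.022, adjusted p = 0.514). LTF held 4918 ± 3016 (SD, n = 6) normalized counts in P and 2143 ± 1358 (SD, n = 5) in NP. In the 9 cows, 3 of the 17 estrogen response genes passed higher in NP and 3 higher in P (median -0.31), beside 7.14% and 4.01% of all genes.

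Of 14 genes known to respond to glucocorticoid through NR3C1, 4 passed an unadjusted p under 0.05 higher in NP and 0 higher in P (median 0.34), beside 5.49% and 2.35% of all genes. PDK4, the kinase that inhibits pyruvate dehydrogenase, held 259 to 505 normalized counts in P and 540 to 1265 in NP, without overlap (1.32, unadjusted p = 0.000196, adjusted p = 0.228). DUSP1, a phosphatase of MAP kinases, held 628 to 1370 in P and 1172 to 2040 in NP (0.75, unadjusted p = 0.0024, adjusted p = 0.320). ZBTB16, also on the progesterone list, was another, and NFKBIA was the last of the 4 (0.51, unadjusted p = 0.0414, adjusted p = 0.607). The slope of NFKBIA on muscle actin passed the adjusted threshold (-0.29, adjusted p = 0.0369). With muscle actin in the fit, its log2 fold change was 0.12 (unadjusted p = 0.509). FKBP5, another gene of the list, had the opposite sign, as given above. In the 9 cows the median of the list was 0.08, and 4 genes passed higher in NP and 1 higher in P, beside 7.14% and 4.01%.

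Of 19 rows of oxytocin receptor signaling, of which 2 are calmodulin rows, 0 passed higher in NP and 1 higher in P (median -0.18), beside 5.49% and 2.35% of all genes. A positive slope on muscle actin past the adjusted threshold was found in 6 of the 19, beside 7.12% of all genes. The phospholipase PLCB4, which acts downstream of the Gq proteins that OXTR activates, held 1735 ± 694 (SD, n = 6) normalized counts in P and 920 ± 408 (SD, n = 5) in NP (-0.93, unadjusted p = 0.0126, adjusted p = 0.459). Its slope on muscle actin was 0.49 (adjusted p = 0.000467), and with muscle actin in the fit its log2 fold change was -0.26 (unadjusted p = 0.0806). The myosin light chain kinase row, MYLK, was at -1.17 (unadjusted p = 0.0503) with a slope of 0.85 (adjusted p = 8.58e-05). Of 16 genes of local steroid metabolism, 0 passed higher in NP and 1 higher in P (median 0.08), beside the same shares. This was the glucuronosyltransferase UGT2A3, at low counts of 11.3 to 34.2 in P and 2.15 to 11.2 in NP (-1.76, unadjusted p = 0.0028, adjusted p = 0.323). The 5α-reductase SRD5A1 followed (0.67, unadjusted p = 0.0594). In none of these lists did a gene pass the adjusted threshold with limma in the 11 cows, whereas DESeq2 called 5 of their genes, PRMT1, ZBTB16, PDK4, DUSP1 and UGT2A3. By list these were 1 of 22 coregulators, 1 of 17 progesterone response rows, 3 of 14 glucocorticoid response genes and 1 of 16 steroid metabolism genes. The share of all genes was 1.33%. ZBTB16 counts on both response lists, and each other list had 0.

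**Figure D4:**
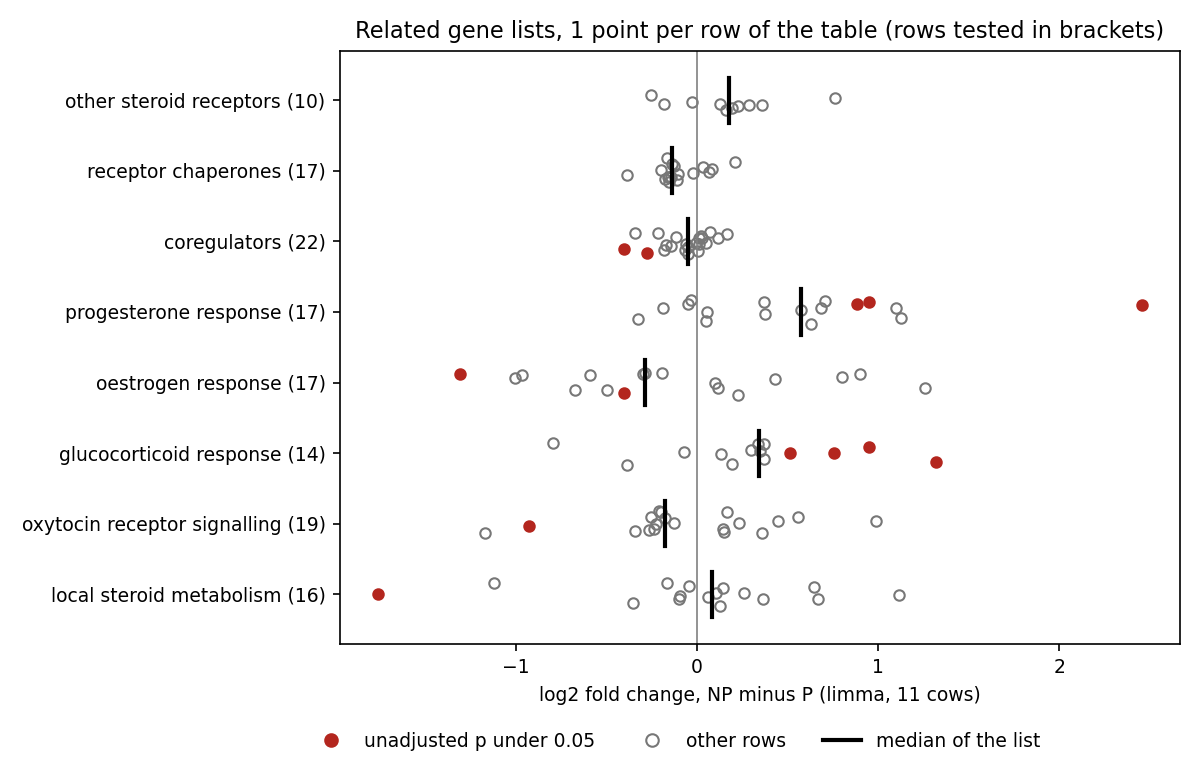
Log2 fold change, NP minus P (horizontal axis), of every tested row in the 8 related lists, 1 point per row of the table, with the number of rows tested in brackets. Filled red points have an unadjusted p under 0.05 in limma and black bars are list medians. The progesterone response list has the highest median (0.57) and the estrogen response list the lowest (-0.29).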

How the data were processed

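RNA was profiled in 11 endometrial biopsies (6 P, 5 NP), grouped by the sample labels. As far as the methods and the submitters' processing notes state, the authors filtered reads with Seqyclean, mapped them with Bowtie2 2.1.0 to masked UMD3.1, counted with HTSeq 0.5.4p2 and normalized with DESeq2 1.12.1. The authors deposited normalized counts, a signal of reads divided by a size factor per cow. Annotation and strand are not given in the sources used here, so overlapping genes cannot be told apart. Whole reads were recovered for all values (1 read is worth 0.784 to 1.14 normalized counts). Limma 3.58.1 (eBayes with trend, R 4.3.3) was run on log2(value + 1), and edgeR 4.0.16, DESeq2 1.42.0 and limma-voom on recovered reads were alternatives. Limma and edgeR were also run on simulated data, whereas DESeq2 and limma-voom were not. Permutation p-values of correlations used 100000 resamples over 11 cows, and exact tests were two-sided. The genes and lists were chosen with earlier results of these data known. Besides the 9 genes, the text names the 2 genes of each list with the smallest p, those whose groups do not overlap, and the 3 genes most correlated with each of the 9. It also names NFKBIA of the glucocorticoid list, for its slope on muscle actin. Alternatives were other tests, normalizations, pseudocounts, filters, covariates, the label of P617 and leaving out cows. The counts rest on 9290949 to 13569085 reads per cow.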

Additional observations from a re-analysis of the deposited data

Results flagged for a closer look

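In 20 groups of cows (the 9 genes and the muscle actin row in P and in NP), 2 held a cow far from the others by Dixon's criterion, and chance marks about 1 group in 20. ESR1 in the NP cows was lowest in NP2810 at 780 normalized counts, with the next cow at 1467 and the highest at 1660, a gap of 0.781 of the range. OXTR in the P cows was highest in P617 at 346 normalized counts, with the next cow at 130 and the lowest at 57.8, a gap of 0.750 of the range.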

How the results depend on the processing

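Of 240 alternatives for the group difference of the 9 genes and the muscle actin row, 230 kept the direction and the side of the threshold and 10 reversed. With muscle actin or other cell markers as covariate 208 of 225 did, 15 reversed (1 of which, ESR2 with stromal markers, also newly passed) and 2 others newly passed, and for the slopes 178 of 198 did, 12 reversed and 8 newly passed. NR3C1 kept its direction between the groups in each alternative run (0.47 to 0.62 when 1 cow was left out, and 0.39 with P617 counted as NP, unadjusted p = 0.0894). For the reversals and moved counts the cause was not tested unless fewer cows show it. Without P617, PGRMC1 was at -0.085. With P617 counted as NP, ESR2, PGRMC1 and PGRMC2 were at -1.07, -0.24 and 0.064, in the 9 cows at -0.39, -0.065 and 0.076, and with edgeR in the 9 cows at -0.40, -0.070 and 0.070. Leaving out 1 cow gave group differences of 0.039 to 1.56 for ESR2 and -0.085 to 0.16 for PGRMC1, -0.73 to -0.064 for GREB1, -0.49 to -0.092 for ESR1, -0.28 to -0.063 for PGR, -0.23 to -0.043 for PGRMC2, -0.22 to -0.027 for FKBP4 and -1.69 to -0.84 for OXTR. With P617 counted as NP, PGR, ESR1, OXTR, FKBP4 and GREB1 were at -0.24, -0.49, -0.43, -0.066 and -1.04. Slopes ranged from -0.20 to 0.040 for ESR1 and from -0.034 to 0.055 for NR3C1. At equal muscle actin ESR2 ranged from -1.29 to 0.12, PGRMC2 from -0.12 to 0.12 and OXTR from -1.36 to 0.052. In the 9 cows the slopes of PGR, ESR1, ESR2, NR3C1 and PGRMC2 were 0.050, 0.37, 0.14, 0.13 and -0.13, and without the group term that of ESR1 was 0.0097.

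At equal muscle actin with P617 as NP, PGRMC2 was at 0.12. With epithelial in place of muscle markers as covariate, ESR2 and PGRMC1 were at 0.87 and 0.049, with endothelial markers PGRMC2 was at 0.077, and with leukocyte markers ESR2 was at 0.45. With stromal markers ESR1, ESR2, PGRMC1 and GREB1 were at 0.17, 2.74, 0.23 and 0.44. With these markers ESR2 (adjusted p = 0.0343), NR3C1 (0.63, adjusted p = 0.0421) and PGRMC2 (-0.36, adjusted p = 0.0516) passed. These were 3 of the 9, among 3874 of 15080 genes. The covariates other than muscle, the count tests with a covariate and edgeR in the 9 cows were added after seeing the data. With epithelial markers 129 of 15080 genes passed.

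Genes called between the groups (0) were 201 with DESeq2, 17 in the 9 cows, 4 there with edgeR and 0 to 171 without 1 cow (171 without P904). Genes called against muscle actin (1712) were 4725 with P617 as NP, 272 in the 9 cows, 2681 with the muscle marker mean, 3136 without the group term and 589 to 4270 without 1 cow (589 without P617, 835 without P1541, 886 without P1631, 780 without P904, 1044 without NP856, 4270 without NP2810). Of the 9 genes, 3 were then called with P617 as NP (ESR2, PGRMC1 and GREB1), 1 with the muscle marker mean (GREB1), and 0 to 2 without 1 cow (PGRMC1 without P1541, GREB1 without P2396, ESR2 and GREB1 without NP2810). ACTA2 alone as the muscle measure was not run, since it shares a row with ACTG2. No paired analysis was possible because the P and NP cows share no replicate numbers. With few cows, wide intervals such as that of ESR2 limit what could be detected, and OXTR rests on as few as 17 reads in a cow.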

Other observations

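Ratios of 3 gene pairs within a cow, chosen after their values were seen, cancel the library's scaling. The log2 ratio of NR3C1 to PGR was -1.40 ± 0.376 (SD, n = 6) in P and -0.64 ± 0.287 (SD, n = 5) in NP, a difference of 0.76 (two-sided exact permutation p = 0.00649). The groups overlapped, since P904 (-0.88) lay above NP2810 (-0.98). The log2 ratio of GREB1 to ESR1 was -2.22 ± 0.772 (SD, n = 6) in P and -2.22 ± 0.573 (SD, n = 5) in NP (exact permutation p = 0.994), with P617 lowest at -3.69. The log2 ratio of PGRMC1 to PGRMC2 was 2.39 to 2.58 in the NP cows and 0.86 to 2.71 in the P cows, with P617 lowest, and the means of P and NP differed by 0.23 (exact permutation p = 0.703). These p-values are not adjusted for the 3 ratios, and absolute ratios between genes also reflect gene length.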
